A study of Mus musculus with 6 samples.

Results

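Hedgehog signalling was described in embryonic mouse lung buds through 9 genes: the ligand gene Shh, the membrane genes Hhip, Ptch1, Boc and Smo, the inhibitor Sufu and the transcription factors Gli1, Gli2 and Gli3. They were taken from a list of pathway genes, and each was read from the probe that the platform annotation gives to that gene alone. All 9 had exactly 1 such probe, out of 19938 genes with a probe of their own. The 3 DKO samples combined Shhcre with floxed Hdac1 and Hdac2 alleles, labelled Shhcre:Hdac1fl/fl; Hdac2 fl/fl, and the 3 control samples carried Shhcre alone. All 6 samples were lung buds at E11.5 (the embryonic day) on a mixed background of C57BL/6, 129X1 and 129S1, and RNA was measured on Affymetrix MoGene 1.1 ST arrays. The Cre driver sits in the Shh gene and replaces 1 Shh allele in both groups, so Shh was measured in buds that had 1 intact allele whether or not Hdac1 and Hdac2 were deleted, and whether the Shh probe also reads RNA from the Cre allele was not determined. Cre from this locus is known to act in the epithelium, so the mesenchyme that receives the signal should keep both deacetylase genes. Deletion in each tissue was not measured. The labels call the samples biological replicates without saying how many embryos went into each, so p-values cover the spread among samples, which may not be that among embryos.

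In the lung bud, the epithelium secretes Sonic hedgehog and the surrounding mesenchyme answers it. Without ligand, the receptor Ptch1 holds Smo inactive, Sufu retains the Gli proteins and Gli3 is processed to a repressor. Ligand binding releases Smo, Gli2 and Gli3 become activators, and Gli1, Ptch1 and Hhip are themselves transcribed as targets, of which Ptch1 and Hhip bind the ligand and limit its spread. In the developing lung this pathway is known for mesenchymal growth, for smooth muscle around the airways and for restraining Fgf10.

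Values are deposited log2 levels, so a difference of 1 is a doubling, and a change is the DKO mean minus the control mean. Its standard error (SE) comes from limma, a linear model with moderated variances. Benjamini-Hochberg adjustment ran over all 19938 genes, and an adjusted p under 0.05 is called a rise or a fall. The targeted gene Hdac1 stood at 11.20, 11.23 and 11.23 in the DKO buds, against 11.48, 11.49 and 11.52 in the control buds, a fall of 1.21-fold (log2 change -0.28, SE 0.05, adjusted p = 0.0193). That of Hdac2 stood at 11.74, 11.77 and 11.70 in the DKO buds, against 11.83, 11.69 and 11.81 in the control buds (-0.04, SE 0.06, adjusted p = 0.845). Whether either probe lies in a deleted exon was not determined, and the Hdac1 call was lost in 5 of the 6 fits that left out 1 array. The DKO arrays scattered more around their group mean, with standard deviations (SD) of 0.0705 to 0.105, than the control arrays, with 0.0596 to 0.0645.

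The ligand and 1 of its binding proteins fell in the DKO buds, and the receptors, Smo, Sufu and the Gli factors did not pass the test. Shh and Hhip were the 2 of 9 genes that fell, and 0 rose. The count was 1 without DKO 1 or control 3 and 0 without control 2. Over all genes, 2.41% passed the test, 1.38% lower and 1.03% higher in DKO. The log2 changes of the 9 genes ran from -0.59 to 0.16 with a median of -0.03, beside a median of 0.00 over all genes. The DKO and control values did not overlap for 3 of the 9 genes, lower for Shh and Hhip and higher for Gli3, and they did not overlap for 18.8% of all genes, 10.4% lower and 8.36% higher in DKO.

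**Figure D1:**
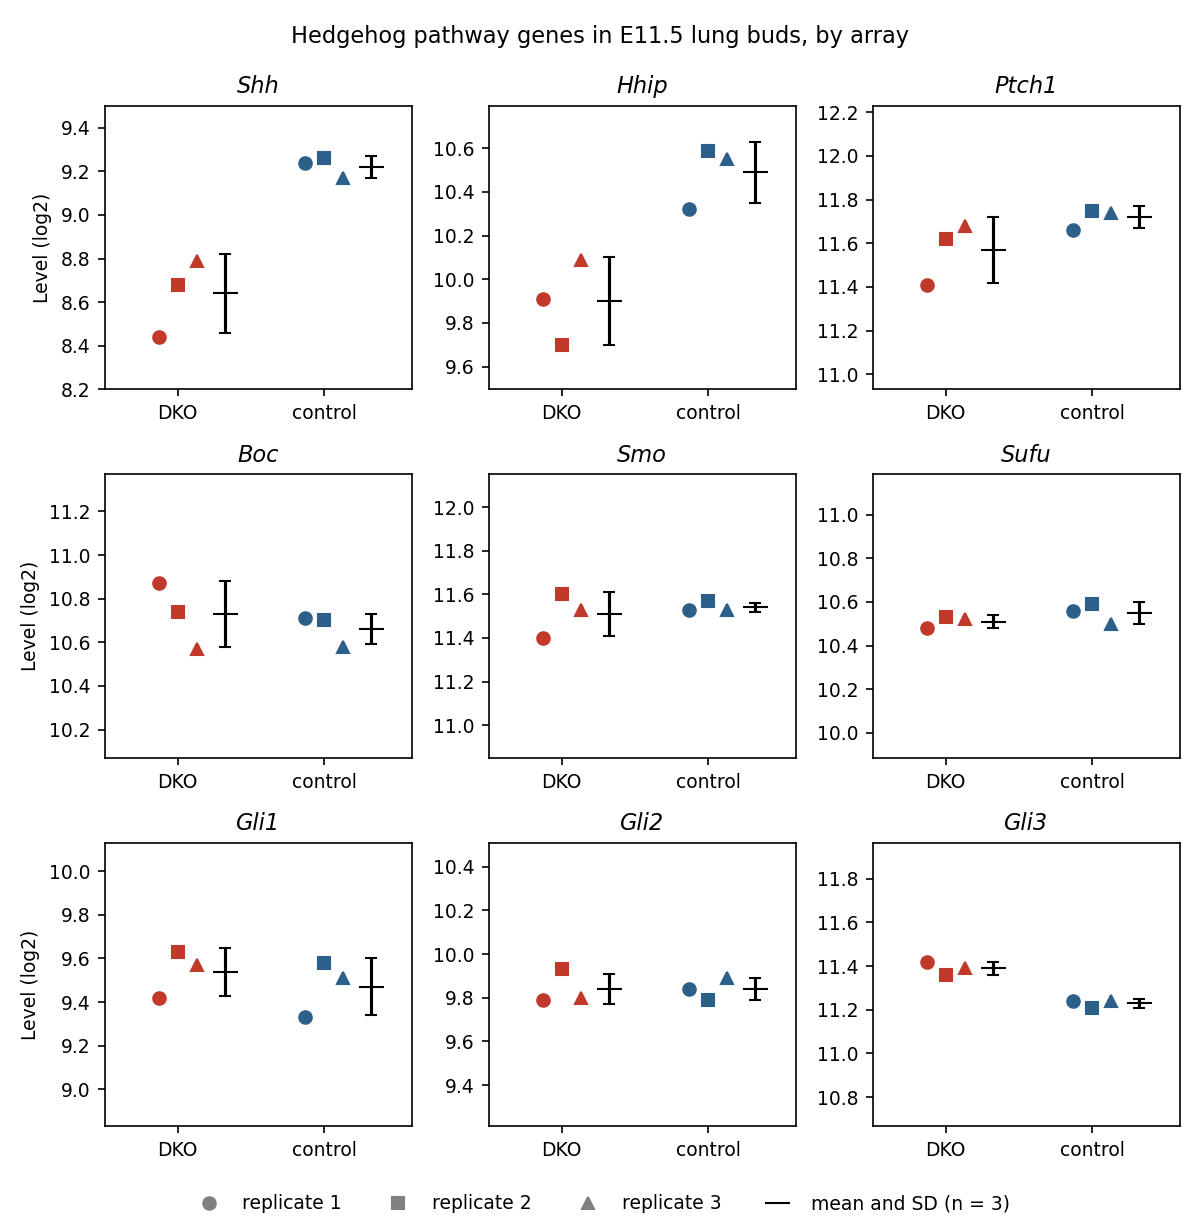
Log2 level of each of the 9 genes on every array, with DKO left of control, 1 symbol per replicate and the mean with its SD (n = 3) beside each group. Every panel spans the same range. The groups are apart for Shh and Hhip, with a gap of 0.38 and 0.23, and for Gli3, with a gap of 0.12, and they overlap in the other panels.

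Shh encodes the secreted ligand of the lung epithelium. Its level was 8.44, 8.68 and 8.79 in DKO 1 to 3, against 9.24, 9.26 and 9.17 in control 1 to 3. All DKO buds lay below all control buds, DKO 1 was the lowest, and the DKO values were more spread (SD 0.18) than the control values (SD 0.05). The fall was 1.5-fold (-0.59, SE 0.08, limma adjusted p = 0.00813, with n = 3 each), and the 95% interval puts the DKO level between 0.583 and 0.761 times that of the control. In whole buds, fewer epithelial cells and less Shh RNA in each cell cannot be told apart. The call was lost without control 2 (adjusted p = 0.0532), while the change stayed between -0.66 and -0.49 whichever array was left out.

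The other ligands of the family were read beside it. Ihh, the Indian hedgehog gene, stood at 7.89, 8.24 and 8.05 in the DKO buds and at 8.10, 7.94 and 7.94 in the control buds, so the groups overlapped (0.07, SE 0.09, adjusted p = 0.847). Dhh, the Desert hedgehog gene, changed by 0.01 (SE 0.06, adjusted p = 0.978). Among 9 genes of hedgehog ligands and their release, Shh alone fell and 0 rose, beside 1.38% and 1.03% of all genes. The median change of this list was -0.01. The next largest changes were those of Scube3 (-0.15, SE 0.06, adjusted p = 0.316) and Scube1 (-0.12, SE 0.05, adjusted p = 0.383), whose secreted products belong to the family that helps release lipid-bearing hedgehog from cells. Neither passed the test. Disp1, the transporter that exports the ligand, stood at 0.04 (SE 0.05, adjusted p = 0.815), and Hhat, the enzyme that attaches palmitate to it, at -0.01 (SE 0.05, adjusted p = 0.972).

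The epithelium that makes Shh showed lower marker levels in the same buds. Of 21 measured epithelial markers, 10 fell and 0 rose, beside 1.38% and 1.03% of all genes. The markers had a median change of -0.32 and a range of -0.89 to 0.08. Their mean log2 level lay between 8.80 and 8.95 in the DKO buds, against 9.22 to 9.29 in the control buds, and none of the marker probes has a true zero on this scale. Rab25, a trafficking gene of epithelia, changed by -0.89 (SE 0.06, adjusted p = 0.000293), the keratin gene Krt18 by -0.86 (SE 0.05, adjusted p = 0.000135) and Foxa1, a transcription factor of the foregut epithelium, by -0.69 (SE 0.07, adjusted p = 0.00184). Against the median shift of this list on the same array, Shh stood at -0.40, -0.23 and -0.19 in DKO 1 to 3 and at 0.05, 0.01 and -0.06 in control 1 to 3. Shh thus changed by -0.27 relative to the epithelial median (SD 0.11 in DKO and 0.05 in control, n = 3 each). The groups did not overlap, but the exact two-sided permutation test cannot go below p = 0.1 with 3 arrays against 3, which is the value it gave (adjusted p = 0.15 over the 9 differences tested here). Rab25, Krt18 and Foxa1, named as the 3 markers of largest change, each fell more than Shh, while the list median fell less.

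**Figure D2:**
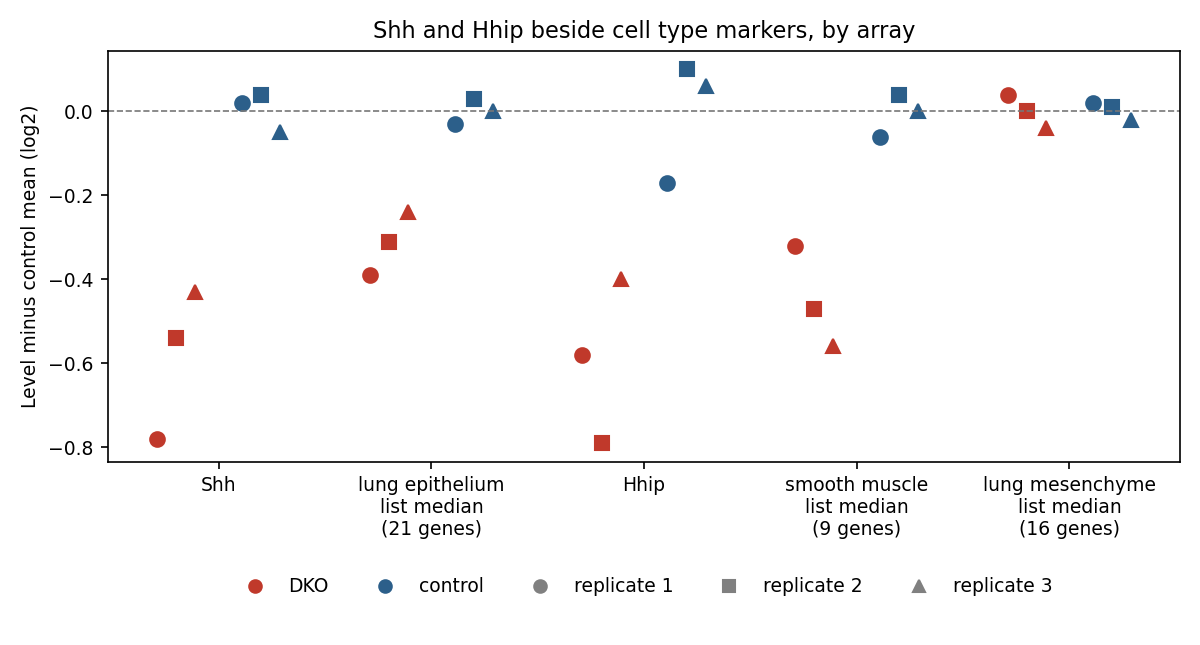
Log2 level minus the control mean, by array, for Shh and Hhip and for the median of the lung epithelium, smooth muscle and lung mesenchyme lists, with DKO left of control and 1 symbol per replicate. The DKO medians of the epithelium list are -0.39, -0.31 and -0.24, those of the smooth muscle list are -0.32, -0.47 and -0.56, and those of the mesenchyme list lie between -0.04 and 0.04.

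Hhip encodes a membrane protein of the mesenchyme that binds hedgehog ligand and blocks it, and it is itself induced by the pathway. Its level was 9.91, 9.70 and 10.09 in DKO 1 to 3, against 10.32, 10.59 and 10.55 in control 1 to 3. All DKO buds again lay below all control buds, but here DKO 2 was the lowest, and control 1 was low among the controls. The fall was 1.5-fold (-0.58, SE 0.11, limma adjusted p = 0.0240, with n = 3 each), with the DKO level between 0.565 and 0.786 times that of the control. The call was lost without DKO 1 (adjusted p = 0.0609), control 2 (0.120) or control 3 (0.112), with changes of -0.68 to -0.48 over all 6 fits that left out an array. The changes of Shh and Hhip differed by -0.00 on average, with overlapping groups (exact two-sided permutation p = 1). The order of the DKO arrays was not the same for the 2 genes, since Shh minus Hhip was -0.21, 0.25 and -0.04 in DKO 1 to 3.

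Ptch1, the receptor that holds Smo inactive and a target of the same signal, did not pass the test. Its level was 11.41, 11.62 and 11.68 in the DKO buds, against 11.66, 11.75 and 11.74 in the control buds. DKO 1 was the lowest array, and DKO 3 lay just above control 1, so the groups overlapped. The change was -0.15 (SE 0.08, interval -0.32 to 0.02, adjusted p = 0.490), and without DKO 1 it was -0.06. Relative to Ptch1 on the same array, with the control mean set to 0, Hhip stood at -0.26, -0.69 and -0.36 in DKO 1 to 3 and at -0.11, 0.07 and 0.04 in control 1 to 3. The mean difference of the changes was -0.44, and the groups did not overlap (exact two-sided permutation p = 0.1, the smallest possible, adjusted p = 0.15).

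Hhip and Ptch1 are the ligand-binding feedback genes among the 9, and the bases upstream of both are shown as a description. The sequences are the 250 bases before the annotated start, from RefSeq on build GRCm38.p6, and 6 of the 9 genes had an entry. The 9-letter Gli site GACCACCCA, searched on both strands, was found in 0 of these 6 windows and in 0.225% of 32851 such windows over all genes. Its inner 6 letters CCACCC, which are part of that motif, were found on either strand in 4 of the 6 windows, those of Hhip, Gli2, Gli3 and Smo, and in 28.1% of all windows. Capitals mark CCACCC or its reverse complement. Hhip holds 1 match, starting 158 bases before the start, and Ptch1 holds 0. Gli2, Gli3 and Smo also hold the 6 letters and did not pass the test. Sites outside the 250 bases were not searched, and whether any match bears on a change was not tested. Both windows are rich in G and C, at 76.0% for Hhip and 78.4% for Ptch1, against a median of 52.4% over all windows.
Hhip, chr8:80058009-80058258, minus strand: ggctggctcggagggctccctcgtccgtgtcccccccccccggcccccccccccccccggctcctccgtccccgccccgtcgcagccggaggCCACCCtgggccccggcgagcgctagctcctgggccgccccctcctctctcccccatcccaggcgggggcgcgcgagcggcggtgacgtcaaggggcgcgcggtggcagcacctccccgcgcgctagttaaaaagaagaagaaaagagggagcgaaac
Ptch1, chr13:63565736-63565985, minus strand: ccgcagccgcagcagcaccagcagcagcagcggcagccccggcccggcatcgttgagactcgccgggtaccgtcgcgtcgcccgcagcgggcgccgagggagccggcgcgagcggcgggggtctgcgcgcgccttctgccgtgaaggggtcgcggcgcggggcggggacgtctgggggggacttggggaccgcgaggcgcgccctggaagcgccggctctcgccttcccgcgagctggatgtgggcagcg

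Boc, a co-receptor that presents the ligand to Ptch1, stood at 10.87, 10.74 and 10.57 in the DKO buds, against 10.71, 10.70 and 10.58 in the control buds. DKO 1 and DKO 2 were above and DKO 3 just below all controls, so its groups overlapped (0.06, SE 0.08, interval -0.11 to 0.24, adjusted p = 0.833). Its sign turned without DKO 1 (-0.01) and with array weights (-0.05). Smo, the membrane protein that passes the signal inward, stood at 11.40, 11.60 and 11.53 in the DKO buds, against 11.53, 11.57 and 11.53 in the control buds. Here DKO 1 was below and DKO 2 above all controls, with a difference of -0.03 (SE 0.06, interval -0.17 to 0.10, adjusted p = 0.896) that turned to 0.02 without DKO 1. The intervals of both genes end within 1.18 times the control level on the high side and at 0.887 times or above on the low side.

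Of 11 measured genes for hedgehog receptors, co-receptors and antagonists at the membrane, Hhip fell and Lrp2 rose, beside 1.38% and 1.03% of all genes. The median change of this list was -0.05. Lrp2, which encodes the endocytic receptor megalin and binds hedgehog among many other ligands, stood at 8.05, 8.11 and 8.12 in the DKO buds, against 7.72, 7.76 and 7.77 in the control buds. The replicates lay close together in both groups, and Lrp2 rose 1.27-fold (0.34, SE 0.05, adjusted p = 0.00790), a call lost without control 1 (adjusted p = 0.0557). The other co-receptors, named here after their values were seen, were Cdon at -0.12 (SE 0.11, adjusted p = 0.753), with DKO 2 alone low at 7.65, and Gas1 at 0.01 (SE 0.05, adjusted p = 0.966). Both signs depended on single arrays, since Cdon stood at 0.02 without DKO 2 and Gas1 at -0.01 without control 2 or 3.

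**Figure D3:**
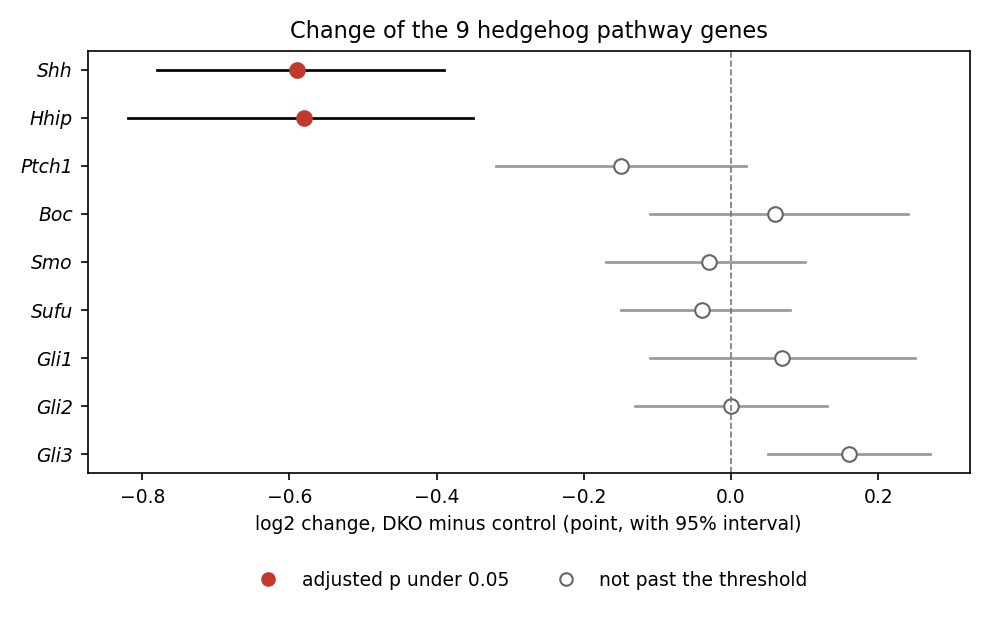
Log2 change, DKO minus control, of the 9 genes with the 95% interval from limma. Filled points have an adjusted p under 0.05, which are Shh at -0.59 and Hhip at -0.58, and open points do not.

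Sufu, which binds Gli proteins and keeps them out of the nucleus, stood at 10.48, 10.53 and 10.52 in the DKO buds, against 10.56, 10.59 and 10.50 in the control buds. These were among the least spread values of the 9 genes (SD 0.03 in DKO and 0.05 in control), and the groups overlapped at -0.04 (SE 0.05, interval -0.15 to 0.08, adjusted p = 0.846). Kif7, a kinesin of the cilium that regulates Gli proteins, stood at 0.01 (SE 0.05, adjusted p = 0.966).

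Gli1 encodes an activator whose RNA is widely used as a readout of the pathway. Its level was 9.42, 9.63 and 9.57 in the DKO buds, against 9.33, 9.58 and 9.51 in the control buds. The groups overlapped, and replicate 1 was the lowest of both groups. The change was 0.07 (SE 0.08, adjusted p = 0.830), and the 95% interval of -0.11 to 0.25 puts the DKO level between 0.924 and 1.19 times that of the control. That interval does not reach a fall of the size seen in Shh or Hhip. Relative to Gli1, Hhip stood at -0.52, -0.94 and -0.49 in DKO 1 to 3 and at -0.03, -0.00 and 0.03 in control 1 to 3, a difference of the changes of -0.65. Relative to Gli1, Ptch1 stood at -0.25, -0.25 and -0.13 in DKO 1 to 3 and at 0.08, -0.07 and -0.01 in control 1 to 3, a difference of -0.21. In both comparisons the groups did not overlap, and the exact two-sided permutation p was 0.1, the smallest possible (adjusted p = 0.15). The 3 targets that feed back on the signal thus had unequal changes on each DKO array, lowest for Hhip, then Ptch1, then Gli1.

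Gli2, the main activator at the start of the response, stood at 9.79, 9.93 and 9.80 in the DKO buds, against 9.84, 9.79 and 9.89 in the control buds. The groups overlapped and shared a mean of 9.84, with a difference of -0.00 (SE 0.06, interval -0.13 to 0.13, adjusted p = 0.997). Its sign has no meaning and turned under several settings. Gli3, which acts mainly as a repressor, was the 1 gene of the 9 whose DKO values all lay above its control values. It stood at 11.42, 11.36 and 11.39 in the DKO buds, against 11.24, 11.21 and 11.24 in the control buds. The spread within groups was small (SD 0.03 in DKO and 0.02 in control), and so was the difference, at 1.12-fold (0.16, SE 0.05, unadjusted p = 0.00843). Over all genes the adjusted p was 0.155, so Gli3 did not pass. It passed with an intensity trend (0.0358) and with array weights (0.0229), and its change stayed between 0.15 and 0.18 whichever array was left out. Relative to Gli2, Gli3 stood at 0.24, 0.05 and 0.20 in DKO 1 to 3 and at 0.01, 0.03 and -0.04 in control 1 to 3 (exact two-sided permutation p = 0.1, adjusted p = 0.15). Relative to Gli1 the groups overlapped, with a difference of 0.10 (exact two-sided permutation p = 0.5).

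Of 15 measured Gli factors and regulators within the cell, limma called 0 in either direction, beside 2.41% of all genes. Ordinary least squares also called 0, but it called only 16 genes over all genes, so its 0 is no second check. In this list 2 genes had an unadjusted p under 0.05, as had 12.8% of all genes. The median change was 0.01 and the range -0.10 to 0.20. The 2 were Gli3 and Zic2, a zinc finger gene related to the Gli family. Zic2 stood at 6.20, 6.29 and 6.10 in the DKO buds, against 5.99, 6.01 and 5.99 in the control buds (0.20, SE 0.06, adjusted p = 0.149). All of these Zic2 levels lay below the array medians of 7.87 to 7.89. Next in size was Arrb2, a beta-arrestin gene (-0.10, SE 0.05, adjusted p = 0.484). Hedgehog signalling runs through the primary cilium, where Smo acts and Gli proteins are processed. Of 24 measured genes of the cilium and its transport, limma called 0, beside 2.41% of all genes. Ordinary least squares also called 0, with the same limit. In this list 4 genes had an unadjusted p under 0.05 (12.8% of all genes did), and the median change was 0.04. The largest values were those of Mks1 (0.22, SE 0.05, adjusted p = 0.0698) and Wdr19 (0.20, SE 0.08, adjusted p = 0.298), and the largest negative one was that of Ofd1 (-0.16, SE 0.07, adjusted p = 0.374). The cilium list had 3 calls with array weights, Mks1 (0.00521) and Wdr19 (0.0186) among them, and 1 with either filter on dim genes, which was Mks1. Over all genes, 2003 of 19938 passed with array weights, and 603 and 567 passed with the filters.

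Genes known as hedgehog targets in the lung or in other tissues did not move together. Of 19 measured targets, 4 fell and 0 rose, beside 1.38% and 1.03% of all genes. The targets had a median change of -0.06 and a range of -0.58 to 0.21. The 4 were Hhip, Foxf2, Igf1 and Ccnd1, and the count was 2 without DKO 1, control 2 or control 3. Foxf2, a forkhead factor of foregut mesenchyme, stood at 8.92, 9.07 and 8.85 in the DKO buds, against 9.48, 9.53 and 9.36 in the control buds. It fell 1.43-fold (-0.51, SE 0.07, adjusted p = 0.00714). Igf1, which encodes insulin-like growth factor 1, stood at 9.87, 9.65 and 9.88 in the DKO buds, against 10.34, 10.36 and 10.26 in the control buds. It also fell 1.43-fold (-0.52, SE 0.07, adjusted p = 0.00700), and the calls of Foxf2 and Igf1 held whichever array was left out (adjusted p up to 0.0467 for both).

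Ccnd1, the gene of cyclin D1, which drives entry into the cell cycle, averaged 11.42 ± 0.12 in the DKO buds and 11.76 ± 0.03 in the control buds (SD, n = 3 each). The groups did not overlap and the fall was 1.27-fold (-0.34, SE 0.07, adjusted p = 0.0355), but the call was lost in 5 of the 6 fits that left out an array, the exception being DKO 2 (adjusted p up to 0.165). Several other targets are named here after their values were seen. Foxf1, the forkhead paralog of Foxf2 and a much used hedgehog target in lung mesenchyme, stood at 12.57, 12.74 and 12.74 in the DKO buds, against 12.76, 12.71 and 12.77 in the control buds. It thus overlapped between the groups (-0.06, SE 0.06, interval -0.20 to 0.07, adjusted p = 0.771). Foxc2 (-0.46, SE 0.11, adjusted p = 0.0698) and Foxc1 (-0.30, SE 0.08, adjusted p = 0.109), forkhead genes of mesenchyme and vessels, had non-overlapping groups but did not pass. Foxc2 passed with an intensity trend (0.0285), array weights (0.0225) and either filter on dim genes (0.0467 and 0.0307) and without DKO 2 (0.0461), and Foxc1 passed with the stricter of these filters (0.0470). Foxl1 stood at -0.20 (SE 0.09, adjusted p = 0.390), Bmp4 at 0.09 (SE 0.08, adjusted p = 0.733), and the T-box genes Tbx2 and Tbx3 at 0.08 and 0.03.

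**Figure D4:**
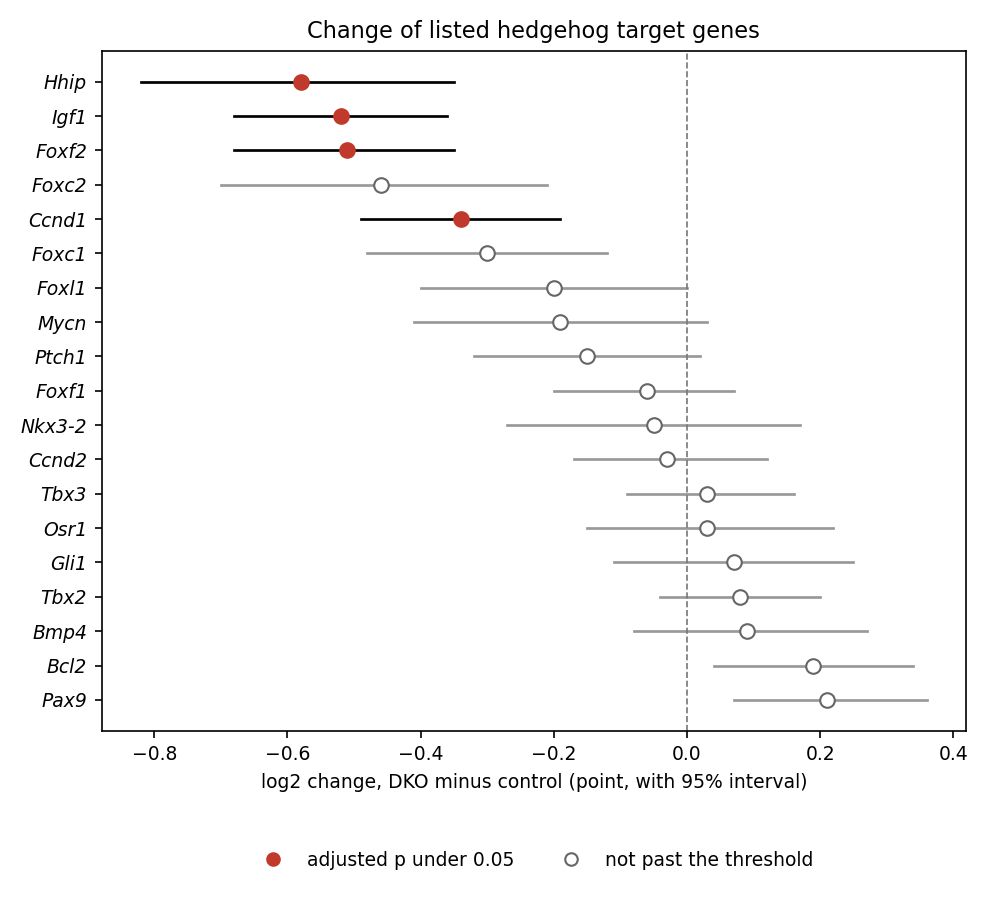
Log2 change, DKO minus control, with the 95% interval from limma, of the 19 measured hedgehog target genes in order of change. The 4 filled points are Hhip, Igf1, Foxf2 and Ccnd1, and the values run from -0.58 to 0.21.

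The tissue that answers hedgehog was read through its own markers. Of 16 measured mesenchymal markers, 2 rose and 0 fell, beside 1.03% and 1.38% of all genes. The markers had a median change of 0.00. The mean log2 level of this list lay between 10.46 and 10.67 in the DKO buds, against 10.42 to 10.47 in the control buds. The 2 were Meox2 (0.63, SE 0.05, adjusted p = 0.000646) and Fgf10, a growth factor gene of the distal mesenchyme (1.05, SE 0.12, adjusted p = 0.00236). Fgf10 stood at 10.44, 10.11 and 9.91 in DKO 1 to 3, against 9.03, 9.14 and 9.14 in control 1 to 3. Against the mesenchymal median on the same array, Hhip stood at -0.62, -0.79 and -0.35 in the DKO buds and at -0.19, 0.09 and 0.08 in the control buds, a difference of -0.58 (exact two-sided permutation p = 0.1, adjusted p = 0.15).

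Markers of smooth muscle, which hedgehog is known to promote around the airways, were also read in the same buds. Of 9 measured markers, 6 fell and 1 rose, beside 1.38% and 1.03% of all genes. The markers had a median change of -0.44 and a range of -0.70 to 0.32. The mean log2 level of this list lay between 9.13 and 9.33 in the DKO buds, against 9.50 to 9.60 in the control buds. The largest falls were those of the actin gene Actg2 (-0.70, SE 0.11, adjusted p = 0.0148), calponin Cnn1 (-0.63, SE 0.09, adjusted p = 0.00917) and the myosin gene Myh11 (-0.60, SE 0.12, adjusted p = 0.0369). The count of 7 calls became 3 without DKO 3, 2 without control 1 and 0 without control 2 or 3, and it was 4 with the replicate number as a block and 0 with all probes tested or with ordinary least squares. Against the smooth muscle median on the same array, Hhip stood at -0.25, -0.32 and 0.17 in the DKO buds and at -0.11, 0.06 and 0.07 in the control buds. These groups overlapped, with a difference of -0.14 (exact two-sided permutation p = 0.4). The smooth muscle median was lowest on DKO 3, where Shh and Hhip were highest among the DKO buds. The part of epithelial and smooth muscle marker levels in the changes of Shh and Hhip was not tested.

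Some markers of neighbouring tissues also rose. Of 10 cardiac markers 1 rose, Myl7 (0.80, SE 0.08, adjusted p = 0.00163), and of 8 mesothelial markers 3 rose, Calb2, Upk1b and Gpm6a. Of 8 markers of stomach, liver, thyroid and oesophagus 1 rose, the albumin gene Alb (0.96, SE 0.18, adjusted p = 0.0294). From the same list, Afp (0.53, SE 0.14, adjusted p = 0.117) and Ttr (0.08, SE 0.06, adjusted p = 0.672) did not pass. The 3 lists had 0 falls and medians of 0.17, 0.17 and 0.04, and 3 of the 8 foregut changes lay below 0. Over all genes 1.03% rose and 1.38% fell. The mean log2 level of the cardiac list was 8.41 to 8.53 in the DKO buds and 8.18 to 8.25 in the control buds, that of the mesothelial list 8.88 to 9.01 in the DKO buds and 8.60 to 8.62 in the control buds, and that of the foregut neighbours 7.47 to 7.65 in the DKO buds and 7.30 to 7.40 in the control buds. In the lists of endothelium, erythroid cells, leukocytes and neural crest, limma called 0 genes. Ordinary least squares also called 0, but it called only 16 genes over all genes, so its 0 is no second check. In these lists 2 of 10, 2 of 7, 4 of 8 and 2 of 6 genes had an unadjusted p under 0.05, beside 12.8% of all genes. The medians of the lists were 0.13, 0.07, -0.12 and -0.09. With array weights limma called 1 endothelial, 2 erythroid, 4 leukocyte and 1 neural gene, beside 2003 of all 19938 genes. It called 1 erythroid gene with an intensity trend, with either filter on dim genes and without DKO 2, and 1 leukocyte gene with the stricter filter and without DKO 1. Over all genes it called 725 with the trend, 603 and 567 with the filters, 811 without DKO 2 and 366 without DKO 1. The mesothelial count was 1 without any of the 3 controls, the cardiac count was 3 without DKO 2, and the foregut count was 0 without DKO 1 or any of the controls; Krt19 is on both the mesothelial and the epithelial list. The part of these tissues in the hedgehog values was not tested.

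Genes whose level over the 6 arrays was most like that of Shh and of Hhip were sought among 665 genes with an SD of at least 0.2, as a description. The arrays form 2 groups, so any gene with a large change in the same direction has a high r here. Nearest to Shh were Fbln7 (Pearson r = 0.995, change -0.34), the epithelial serine protease gene Tmprss2 (0.992, -0.61), Large2 (0.991, -0.48), the adaptor gene Grb7 (0.991, -0.88) and Lad1 (0.991, -0.36). Nearest to Hhip were Tmem62 (Pearson r = 0.996, change -0.34), Akr1c19 (0.992, -0.48), Myocd, the coactivator of smooth muscle genes (0.981, -0.43), Lrmda (0.981, -0.46) and Plch1 (0.979, -0.36). Myocd is also on the smooth muscle list. No gene was among the nearest of both, and 8 of the 10 passed the test, all but Tmem62 (adjusted p = 0.0586) and Plch1 (0.0750).

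Over the 5 hedgehog lists together, 75 of 80 listed genes were measured. Of these, 5 fell and 1 rose, beside 1.38% and 1.03% of all genes. The 5 were Shh, Hhip, Foxf2, Igf1 and Ccnd1, and the 1 that rose was Lrp2. The median over these 75 genes was 0.01, beside 0.00 over all genes. The count of 6 was 3 without control 2.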

How the data were processed

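RNA of 6 lung bud samples, 100 ng each, was labelled with biotin and hybridised to 1 array per sample, per the labels. The deposited table holds log2 values that the authors made with oligo and RMA, per the submitters' processing notes, which give no version or settings; base 2 was taken from the method and from the range of 3.42 to 14.27. RMA makes the arrays alike (medians 7.87 to 7.89), so a change common to all genes cannot be seen. Of 35556 probes, 21789 had 1 gene symbol, 1621 several, and 12146 were unnamed here; the brightest probe stood for each of 19938 genes. The platform symbols were checked by Entrez identifier against RefSeq (GRCm38.p6), which matched 19856 genes and changed 0 names. Groups were taken from the titles and fitted with limma 3.58.1 in R 4.3.3 with group as the only term, and the fit was tested on simulated data. Differences between changes were tested on single arrays by exact permutation. The number of arrays limits the precision.

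The members and lists were chosen with earlier results of these data known. Named were all members, Hdac1 and Hdac2, list genes past the threshold or up to 3 with the largest change, up to 3 cell type markers of largest change, and the 5 genes most like Shh and Hhip (predicted and clone names left out). Other named genes were chosen after their values were seen. Alternatives were a replicate block, other eBayes settings, array weights, another normalization, filters on dim genes, other probe choices, ordinary least squares and leaving out each array.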

Additional observations from a re-analysis of the deposited data

How the results depend on the processing

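The 481 calls over all genes became 725 with an intensity trend, 2003 with array weights, 208 with all probes tested (of 35556) and 16 with ordinary least squares, and 197 to 811 when 1 array was left out. With all probes tested and with ordinary least squares, 0 of the 9 genes passed: Shh kept its change of -0.59 (adjusted p = 0.0649 and 0.207) and Hhip its change of -0.58 (0.115 and 0.281). Leaving out 1 array gave 0 to 2 members (0 without control 2), Shh -0.66 to -0.49 and Hhip -0.68 to -0.48. Gli3, at 0.16, passed with an intensity trend (0.0358) and array weights (0.0229). Of the hedgehog lists, 12 genes passed with array weights, 1 with all probes tested, 0 with ordinary least squares and 3 to 7 with 1 array left out. The signs that turned among the named genes were these: Boc was -0.05 and Dhh -0.07 with array weights, Gli2 was 0.01 after a second quantile normalization and 0.00 with each array centred, and with 1 array left out Boc ranged from -0.01 to 0.14, Smo from -0.08 to 0.02, Gli1 from -0.00 to 0.13, Gli2 from -0.04 to 0.02, Cdon from -0.20 to 0.02, Gas1 from -0.01 to 0.05, the mesenchymal gene Lum from -0.00 to 0.54, Ihh from -0.02 to 0.15, Dhh from -0.04 to 0.06, Hhat from -0.03 to 0.03 and Kif7 from -0.03 to 0.05. The differences between changes moved by less than the SD pooled over both groups, but with 1 array left out those of Hhip minus Gli1 (-0.73 to -0.50), Hhip minus Ptch1 (-0.53 to -0.31), Gli3 minus Gli2 (0.12 to 0.22), Shh minus the epithelial median (-0.31 to -0.21) and Hhip minus the smooth muscle median (-0.29 to -0.05) moved by more than the SD of the control arrays. The causes of the lost calls were not tested, except that testing all probes adds tests and leaving out an array removes samples. The labels do not say whether same-numbered samples were paired. Deviations of same-numbered arrays correlated at -0.064, 0.046 and 0.156, and those of differently numbered arrays between -0.193 and 0.142. With 3 arrays per group these values cannot decide whether samples were paired. With the replicate block, 406 genes passed, and Shh (adjusted p = 0.0207) and Hhip (0.0353) kept their calls. Ccnd1 (0.0702), Hdac1 (0.0507), Myh11 (0.0619) and Lad1 (0.0689) lost theirs. The smooth muscle list then had 4 calls in place of 7 and the foregut neighbours 2 in place of 1.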
